A study of Ischnura elegans with 24 samples.

Results

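The average warming effect compares all 12 libraries of damselfly larvae reared at 24 °C with all 12 reared at 20 °C, as 1 temperature effect common to 6 populations. All 24 of the 24 libraries of the series entered, and 31096 of the 34095 contigs in the deposited table were tested. The damselfly was Ischnura elegans, and its larvae, all males in their last larval stage, came from 3 northern and 3 southern populations and had grown up singly in the laboratory on brine shrimp nauplii. Each library was made from whole bodies, with the RNA of 3 larvae of 1 population and 1 temperature combined, and 2 such pools (a and b) stand for every population and temperature. Libraries were therefore chosen by their labels alone, and contigs by how many libraries counted them. The larvae carried no engineered change, and temperature was the only treatment.

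A contig is a transcript sequence put together from reads without a genome, and 1 gene can give several. Contigs carry no gene names in the deposited table, and 0 of their identifiers matched the 21087 genes that RefSeq lists for assembly ioIscEleg1.1. No pathway, tissue marker or heat-response list could therefore be read, and no sequence is shown. Names are given for 4 contigs.

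Damselfly larvae live in water and take the temperature of their surroundings, so the rate of their metabolism, growth and moulting follows that of the pond. A lasting change of gene expression with rearing temperature is 1 form of phenotypic plasticity, the ability of a genotype to take different states in different environments. In aquatic insects mild warming within the natural range usually speeds development, while transcripts of chaperones and other stress proteins are best known from sudden heat near the upper limit. In whole bodies, fewer cells of a type and less RNA per cell cannot be told apart.

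Averaged over the 6 populations, warming from 20 to 24 °C changed 466 contigs, of which 279 rose and 187 fell. These were 1.5% of the tested contigs (0.897% that rose and 0.601% that fell) at a Benjamini-Hochberg adjusted p under 0.05 in edgeR's quasi-likelihood F test. Most changes were small. The median contig among those that rose was 37.6% higher at 24 °C, and the median contig among the others fell by 27.5% (log2 fold changes of 0.46 and -0.46). Of the called contigs, 294 (63.1%) had an estimated change of less than 1.5-fold and 57 (12.2%) of at least 2-fold, 29 upward and 28 downward. The fold between the temperatures was tested against 1.2-fold as well, and 18 contigs (0.0579%) passed, 11 that rose and 7 that fell. Only 10 of the 57 contigs estimated at 2-fold or more were among these 18.

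The balance between rising and falling contigs depended on how libraries were scaled, and on which contigs and libraries entered. With scaling by trimmed mean of M values (TMM), which sets the typical contig to no change, 59.9% of the called contigs rose. With library totals alone, 1340 contigs were called, and 110 of them (8.21%) rose while 1230 fell. That scaling moved the median log2 fold change of all tested contigs from 0.0031 to -0.14, so changes are given relative to the typical contig. DESeq2's size factors gave 463 calls, 59.2% of them upward. With TMM on the 18213 contigs of at least 10 counts in every library, 585 were called. Of these 293 rose and 292 fell (50.1% upward). With 1 population left out, the upward share ran from 50.7% (without northern population 3) to 67.1% (without southern population 2).

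**Figure D1:**
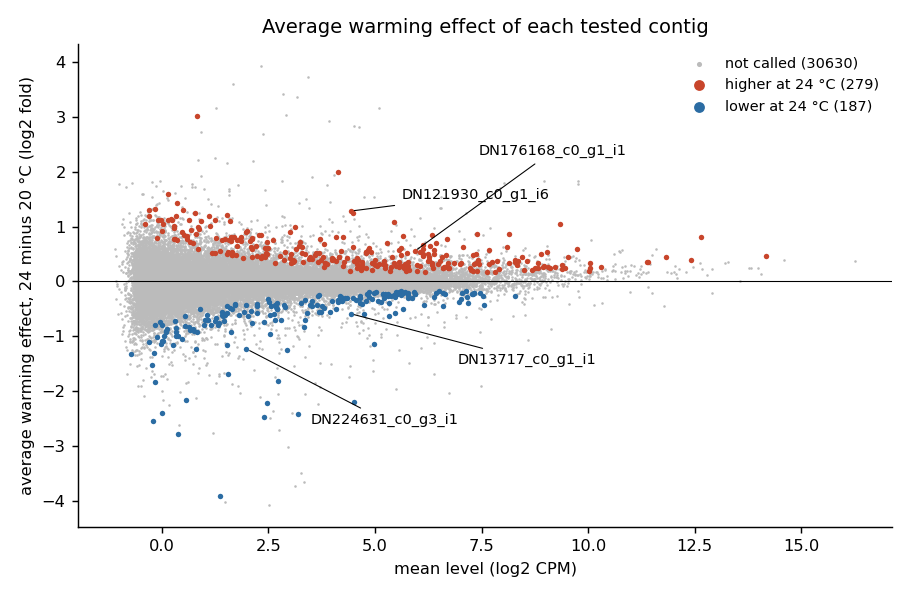
Average warming effect of each of the 31096 tested contigs (vertical axis, log2 fold change, 24 minus 20 °C) against its mean level (horizontal axis, log2 CPM). Red points are the 279 contigs that rose and blue points the 187 that fell. Called changes are small at high levels and large at low levels, where a larger change is needed for a call.

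The 2 rising and 2 falling contigs of smallest p, among those with 1 direction in every population and a mean log2 CPM of at least 1, moved by 1.46-fold to 2.43-fold. TRINITY_DN121930_c0_g1_i6 had a lowest, median and highest level of 8.05, 10.7 and 21.1 CPM (counts scaled to a common library size by TMM) in the 12 libraries at 20 °C, and of 16.0, 28.1 and 44.7 CPM at 24 °C. The ranges overlapped through pool a of northern population 3 (19.6 CPM) and pool a of southern population 1 (16.0 CPM) at 24 °C, but within each of the 6 populations both pools at 24 °C lay above both at 20 °C. Its mean went from 12.6 ± 4.57 CPM to 30.3 ± 9.67 CPM (SD, n = 12), or 1.28 ± 0.125 in log2 fold (SE; adjusted p = 3.97e-05 in edgeR). By population the log2 fold change ran from 0.96 in southern population 1 to 1.59 in southern population 2.

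TRINITY_DN176168_c0_g1_i1 had levels of 40.9, 49.0 and 59.3 CPM (lowest, median, highest) at 20 °C and of 60.0, 71.5 and 86.6 CPM at 24 °C. No library at 24 °C fell into the range at 20 °C. The mean rose from 49.4 ± 5.34 to 72.4 ± 8.96 CPM (SD, n = 12), or 0.55 ± 0.062 in log2 fold (SE; adjusted p = 0.000164 in edgeR). Southern population 1 changed least, from 53.7 to 60.7 CPM (log2 fold change 0.18), and southern population 3 most, from 47.5 to 82.5 CPM (0.80). The test of a difference among populations gave an unadjusted p of 0.0434 for this contig and an edgeR adjusted p of 0.899.

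TRINITY_DN224631_c0_g3_i1 was the contig that fell with the smallest p. It had 3.95, 4.95 and 7.39 CPM (lowest, median, highest) at 20 °C and 1.03, 2.07 and 3.73 CPM at 24 °C, again with no overlap. The mean fell from 5.32 ± 1.11 to 2.32 ± 0.834 CPM (SD, n = 12), or -1.23 ± 0.141 in log2 fold (SE; adjusted p = 0.000164 in edgeR), on 1355 counts in all libraries together. The drop ran from -0.85 (southern population 2) to -1.92 (northern population 2) on the log2 scale. Both other tested contigs of the same Trinity read cluster were called as well, with log2 fold changes of -1.14 and -1.15, and may share reads with it.

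TRINITY_DN13717_c0_g1_i1 had 21.6, 26.1 and 31.1 CPM at 20 °C and 14.9, 17.1 and 21.1 CPM at 24 °C (lowest, median, highest). The highest library at 24 °C (21.05 CPM, southern population 1) stood just below the lowest at 20 °C (21.59 CPM, southern population 3). The mean fell from 25.8 ± 3.00 to 17.2 ± 1.86 CPM (SD, n = 12), or -0.59 ± 0.068 in log2 fold (SE; adjusted p = 0.000164 in edgeR). Populations ranged from -0.40 (southern population 3) to -0.76 (northern population 2). With the pools of each population and temperature summed (6 pairs), 3 of the 4 named calls were lost. The edgeR adjusted p was then 0.138 for TRINITY_DN176168_c0_g1_i1, 0.106 for TRINITY_DN224631_c0_g3_i1 and 0.0781 for TRINITY_DN13717_c0_g1_i1.

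**Figure D2:**
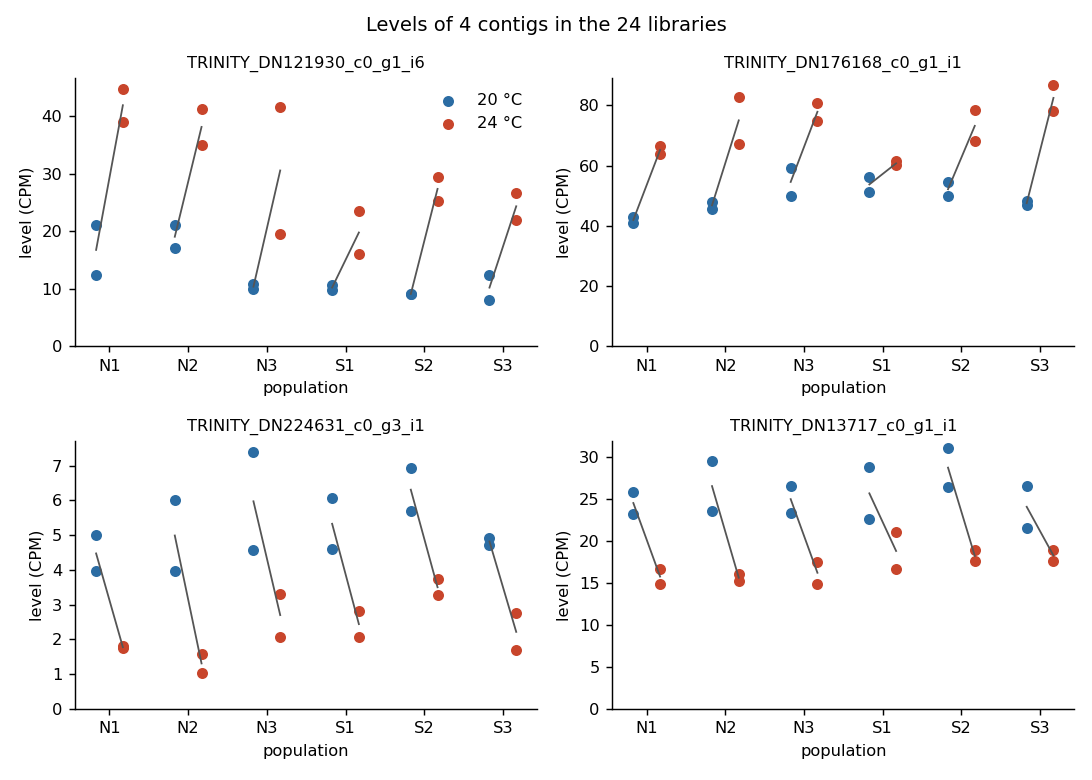
Levels (CPM, TMM-scaled) of the 4 named contigs in the 24 libraries, by population (N1 to N3 northern, S1 to S3 southern). Each point is 1 library, blue at 20 °C and red at 24 °C, and lines join the means of the 2 pools. In all 4 contigs every population moved the same way, which the rule for naming them required.

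Groups without any overlap were rare. In 8 contigs (0.0257% of those tested) the 12 libraries at 24 °C did not overlap the 12 at 20 °C, 1 higher and 7 lower, and 3 of the 4 named contigs were among them. All 8 were called, with log2 fold changes of 0.26 to 1.23 in size.

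In the fit with pools kept apart, the data limited how large an average effect could have been missed. For 26038 contigs (83.7%) the 95% interval of the fold change lay inside 2-fold in either direction, and for 16720 (53.8%) inside 1.5-fold. The interval reached 0.376 on the log2 scale to either side of the estimate in the median contig. These intervals count each pool as a replicate. With the pools of each population and temperature summed, edgeR called 1 contig, and intervals from that fit are not given.

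Calls were more frequent, and called changes smaller, among abundant contigs. Of 4 equal groups of contigs by mean level, in the highest (above 3.68 log2 CPM) 255 of 7774 contigs were called (3.28%), with a median SE of 0.077 and a median called change of 0.33 on the log2 scale. In the lowest group 32 of 7774 were called (0.412%), with a median SE of 0.29 and a median called change of 1.11. A contig with a larger SE needs a larger change to be called. The sizes of called changes therefore do not measure the response at each level. In the highest group 170 contigs rose and 85 fell, while in the lowest 13 rose and 19 fell. These counts are with TMM scaling, and the balance over all contigs changed with the scaling and the contigs entered, as given above. The 57 contigs with an estimated change of at least 2-fold had a median level of 0.49 log2 CPM and a median SE of 0.27. The median level was 4.55 log2 CPM for the other 409 called contigs and 1.55 for all tested contigs.

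The contigs that rose took 5.51%, 5.83% and 6.45% of counts (lowest, median, highest library) at 20 °C and 5.84%, 7.24% and 7.97% at 24 °C. Pool a of northern population 2 was the only library at 24 °C within the range at 20 °C, and the other 11 held 6.99% or more. Most of these counts belonged to 4 contigs, and the most abundant alone went from 1.64% ± 0.148 to 2.04% ± 0.242 of counts (SD, n = 12; log2 fold change 0.46 ± 0.069 SE, edgeR adjusted p = 0.00252). The contigs that fell took 0.56%, 0.631% and 0.70% of counts at 20 °C and 0.36%, 0.469% and 0.594% at 24 °C. These shares are of library totals without TMM scaling and describe contigs chosen on the same libraries.

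**Figure D3:**
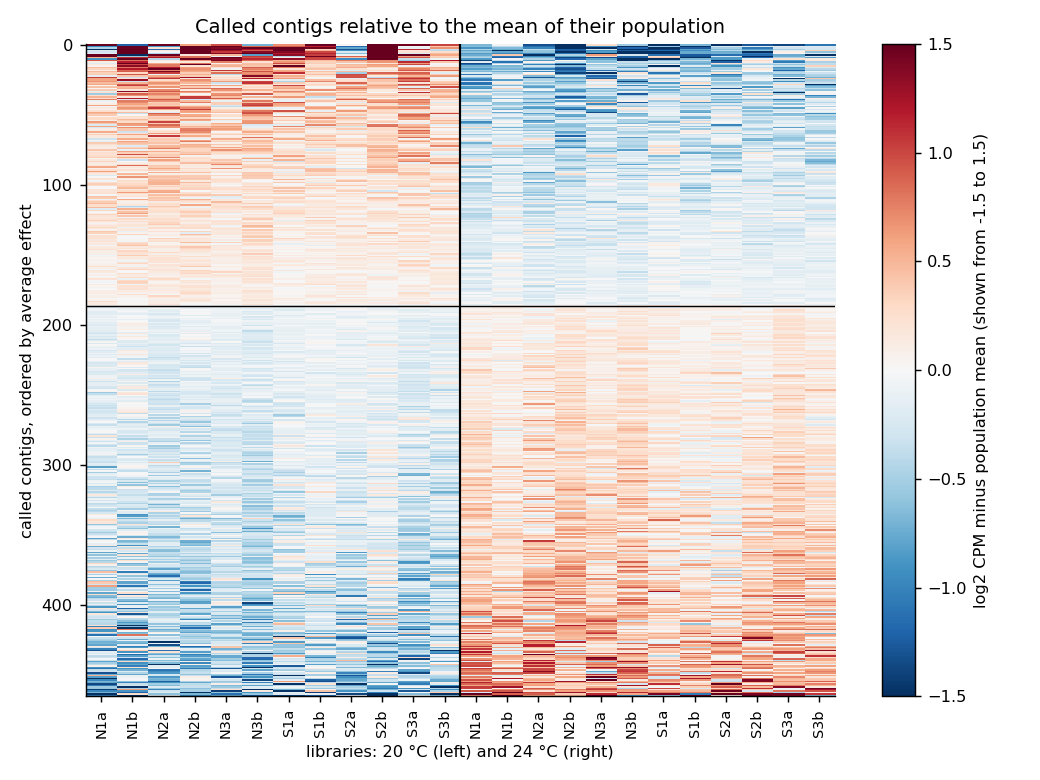
The 466 called contigs (rows, the 187 that fell above the horizontal line and the 279 that rose below it) in the 24 libraries (columns, 20 °C left and 24 °C right). Colour shows log2 CPM minus the mean of the 4 libraries of the population, red above and blue below it; contigs were chosen on these libraries, so the contrast between left and right follows from the choice; the dark band at the top left is uneven among pools.

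The composition of the libraries moved with temperature too. The 100 contigs of highest mean CPM took 40.7% ± 2.94 of counts at 20 °C and 43.9% ± 3.09 at 24 °C (SD, n = 12), a difference of 3.13 percentage points (two-sided exact permutation test within populations, p = 0.0196, adjusted over 4 library measures 0.0393). The share was higher at 24 °C in 5 of 6 populations, from 0.177 points in southern population 2 to 6.66 in northern population 1, and was lower in southern population 1 (-1.125 points). Without northern population 1, 2 or 3 or southern population 3 the exact permutation p was 0.0666, 0.0517, 0.0522 and 0.0764. TMM factors, which are low where a few contigs take many counts, were 1.05 ± 0.0584 at 20 °C and 0.955 ± 0.0976 at 24 °C (SD, n = 12; exact permutation p = 0.00352, adjusted 0.0141), and lower at 24 °C in 5 of 6 populations.

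Of these 100 abundant contigs 10 rose and 0 fell, against 1.5% called among all contigs. In the most abundant of the 4 groups by mean level 3.28% were called, where 170 rose and 85 fell. The median log2 fold change of the 100 contigs was 0.19 and 93 of them lay above 0, while 50.5% of all tested contigs did. With library totals in place of TMM, a check chosen after the values were seen, 3 rose and 1 fell, and 68 lay above 0. The median was then 0.041, which is 0.18 above that of all contigs under the same scaling, against 0.19 with TMM. A change of scaling shifts all contigs by nearly the same amount, so this gap could hardly change and is not a check. Library totals themselves (14414851 counts on average at 20 °C and 14585722 at 24 °C) gave an exact permutation p of 0.761. The number of contigs with at least 1 count was higher at 24 °C by 79.7 (exact permutation p = 0.332), but the direction turned for contigs with at least 10 counts, with a difference of -801 (exact permutation p = 0.0379). The part of library composition in the called changes was not tested beyond the scalings given here.

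**Figure D4:**
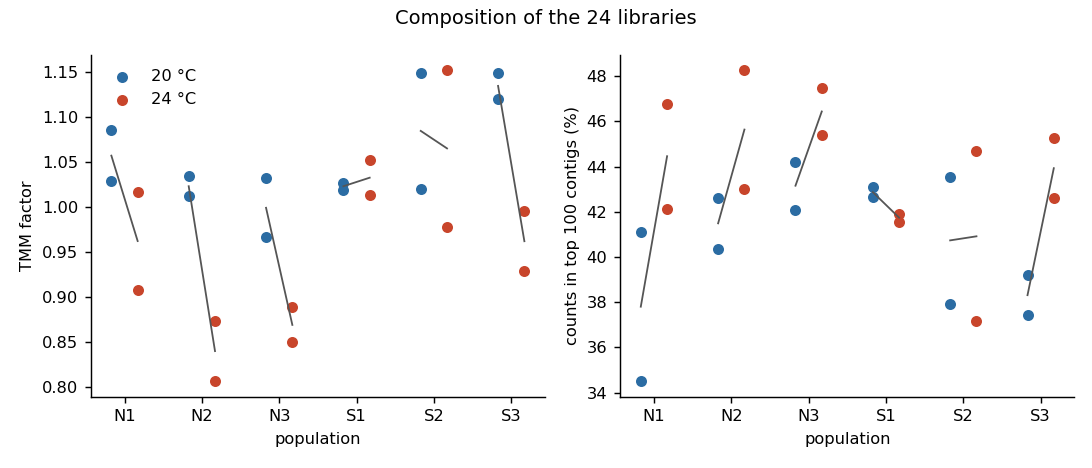
TMM factor (left) and share of counts in the 100 contigs of highest mean CPM (right, percent) in each library, by population, with 20 °C in blue and 24 °C in red and lines joining the means of the 2 pools. TMM factors were lower at 24 °C in every population but southern population 1.

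Temperature accounted for a modest part of the differences between libraries. Of the sum of squares of log2 CPM over all tested contigs, populations held 33.6% (5 degrees of freedom), the common temperature effect 5.56% (1 degree) and the rest 60.9% (17 degrees). The mean square of temperature was 1.55 times that of the rest, and that of populations 1.88 times. After population means were removed, none of the first 4 principal components separated the temperatures. The first held 12.1% of the variance and ran from -70.1 to 20.5 at 20 °C and from -11.0 to 102.1 at 24 °C, with pool a of northern population 2 at the upper end.

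Whether 1 common effect described all populations was asked with 5 population-by-temperature terms. In edgeR 0 contigs had a response that differed among the 6 populations at an adjusted p under 0.05 (0%; smallest adjusted p 0.254). At an unadjusted p under 0.05 there were 1612 (5.18%). DESeq2's likelihood ratio test called 81 contigs and limma 0. The edgeR count was 84 without pool b of northern population 2 at 24 °C, 1 without pool a of northern population 1 at 20 °C, 1 without pool b of southern population 2 at 24 °C and 2 without pool b of southern population 3 at 24 °C. With 2 pools for each population and temperature, a count of 0 does not show that the populations responded alike. Of the 466 called contigs, 397 had the sign of the average in all 6 populations and 69 in 5, against 8.24% and 23.6% of the tested contigs, a description of contigs chosen on these libraries.

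The common effect was then looked for in populations that had not been used to call it. Contigs were called on 5 populations (20 libraries), and their change was read in the 4 libraries of the other population. In southern larvae the called contigs kept their direction in 80.2%, 80.1% and 79.9% of cases in populations 1, 2 and 3 (235 of 293, 246 of 307 and 123 of 154 contigs). In northern larvae the shares were 83.9%, 92.0% and 91.5% (270 of 322, 81 of 88 and 65 of 71 contigs). Over all tested contigs the share was 55.1% to 60.0%. With the pools summed, southern population 3 was the only one left out with more than 1 call to read, and 58.3% of its 12 contigs kept their direction, against 57.1% of all tested contigs with the pools apart.

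The size of the response in the population left out varied more than its direction. Along the called direction the median log2 change was 0.53 in northern population 2 and 0.60 in northern population 3, close to the 0.52 and 0.63 of the 5 populations that gave the calls. It was 0.27 in northern population 1 (against 0.44), 0.20 in southern population 1 (0.53), 0.21 in southern population 2 (0.56) and 0.29 in southern population 3 (0.59). Values in the 5 populations are raised by the choice of contigs on them. Each population had its own list of contigs, so the 6 values are not a test of one population against another.

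**Figure D5:**
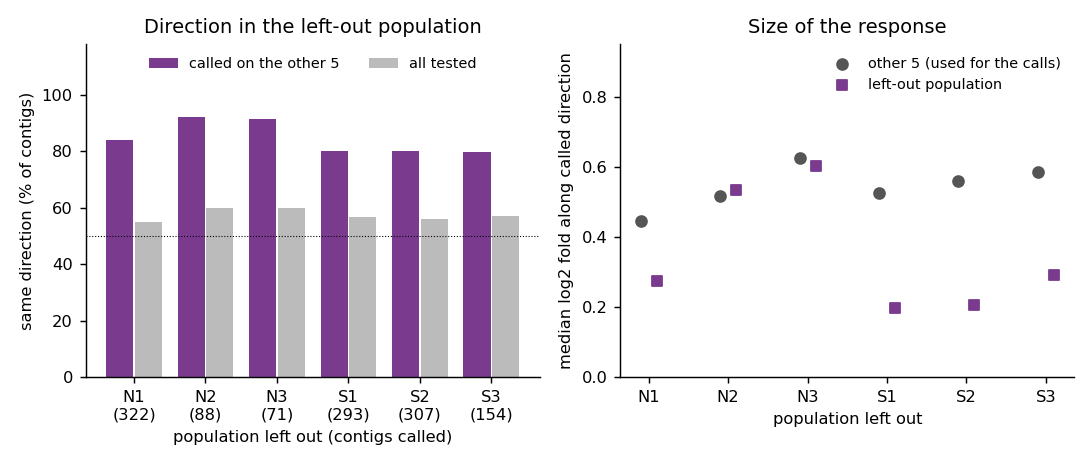
Contigs called on 5 populations, read in the sixth. Left, percent of contigs with the same direction in the left-out population, for called contigs (purple, number in brackets) and all tested contigs (grey); right, median log2 change along the called direction in the 5 populations that gave the calls (circles) and in the left-out population (squares).

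The steepest falls came from contigs that varied among the pools at 20 °C. Called contigs that fell at least 4-fold numbered 9, from 8 Trinity genes in 6 Trinity read clusters. Their log2 fold changes were -3.90 to -2.16, with edgeR adjusted p of 0.00615 to 0.0464. Only 1 called contig rose that far. The summed level of the 9, a set chosen after the values were seen, was 18.7, 85.1 and 174.7 CPM (lowest, median, highest) at 20 °C and 8.83, 14.4 and 26.6 CPM at 24 °C. At 20 °C 7 libraries held 81.4 to 174.7 CPM and the other 5 held 18.7 to 28.4 CPM.

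The high and low libraries of this summed level were in part pools of the same population. At 20 °C pool a held 20.3 CPM and pool b 150.2 CPM in northern population 1, 22.7 and 135.0 CPM in northern population 2, and 18.7 and 174.7 CPM in southern population 2. In northern population 3 both pools were high (81.4 and 88.8 CPM), as they were in southern population 1 (135.4 and 103.7 CPM). Both were low in southern population 3, at 26.6 and 28.4 CPM, against 19.3 and 16.4 CPM at 24 °C. The sum does not describe each contig, and 2 of the 9, both of 1 Trinity gene, went otherwise at 20 °C. In northern population 1 they stood at 1.94 and 2.02 log2 CPM from the population mean in pool a, and at -1.21 and -1.685 in pool b. In southern population 3 they were above that mean in pool a (1.447 and 1.852) and pool b (1.017 and 0.584). In northern population 3, another of the 9 stood at -0.609 (pool a) and 1.591 (pool b) from the population mean at 20 °C. At 24 °C it stood at -0.604 and -0.378. Over the 12 libraries at 20 °C the 9 contigs correlated in pairs at a median Pearson r of 0.726 on log2(CPM + 0.5), from -0.42 to 0.985. These pairs share their libraries, contigs of 1 gene share sequence, and contigs of 1 read cluster may share reads. Of the 9 calls 5 were made without every single library in turn, and 0 without every population in turn.

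Contigs of 1 Trinity gene usually moved together. The 466 called contigs belonged to 446 Trinity genes, and 17 of these held 2 or more called contigs. In 24 pairs both contigs of a gene were called, and 24 of the pairs moved the same way. Where 1 of 2 was called, the other had the same sign in 95 of 99 pairs (96.0%), against 3825 of 5308 pairs (72.1%) over all tested contigs. Isoform contigs share sequence and reads may have been divided between them, so these are not independent measurements. Called contigs were also chosen on these libraries for a clear change, while the median tested contig changed by 0.15 on the log2 scale. The shares of 96.0% and 72.1% therefore come from unlike sets.

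The number of calls depended on which libraries entered. Without 1 library it was 235 to 616, the highest without pool b of northern population 1 at 20 °C. It was lower by more than 1.5 times without pools a and b of northern population 3 at 20 °C (285 and 235), pool b of that population at 24 °C (288), pool a of northern population 2 at 20 °C (255), pool b of that population at 24 °C (257), and pool a of southern population 3 at 20 °C (283) and 24 °C (271). Without a whole population it was 322, 88 and 71 (northern 1, 2 and 3) and 293, 307 and 154 (southern 1, 2 and 3). Of the 466 contigs, 196 were called without every library in turn, and 45 of them (9.66% of the 466) without every population in turn as well. With the pools of each population and temperature added together, leaving 6 pairs, edgeR called 1 contig, and 3645 had an unadjusted p under 0.05 against 4469 with pools kept apart.

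The 18 contigs past 1.2-fold all kept their sign in 6 populations, which the choice favours. Their number fell to 8 without pool a of northern population 1 at 24 °C and without pool b of southern population 3 at 20 °C. It was 9 without pool a of northern population 3 at 20 °C or pool b at 24 °C, and 10 without either pool of northern population 2 or pool b of southern population 2 at 24 °C. It was 11 without pool b of northern population 1 at 24 °C, northern population 3 at 20 °C, southern population 1 at 20 °C or southern population 3 at 24 °C. Without northern populations 1, 2 and 3 it was 6, 2 and 2, and without southern population 2 it was 6. It was 1 against a fold of 1.5.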

How the data were processed

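Per the labels, pooled RNA of whole larvae was made into TruSeq libraries and sequenced in paired ends on HiSeq. The values deposited by the authors are raw read counts per Trinity contig. FastQC 0.11.5, Trimmomatic 0.36, featureCounts and Subread 1.5.1 are listed in the submitters' processing notes, without roles. How the assembly was made and filtered, how reads were aligned, and whether strand was used: not given in the sources used here. No sequencing batch is given in the labels.

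Contigs had to pass edgeR's filterByExpr over the 4 groups of latitude and temperature (minimum count 10, minimum total 15), which left 31287. The zero rule (no count in 10 or more libraries) removed 191 of these (28 contigs at 0 in 9 libraries stayed, with a median mean count of 10.2, and 34 at 0 in exactly 10 did not, with 8.79). Library totals were 12061616 to 17157615 counts, and a count of 3 corresponded to 0.175 to 0.249 CPM, which covers counting error only. Temperature was fitted with 6 population intercepts by robust quasi-likelihood F tests (edgeR 4.0.16, R 4.3.3), with TMM scaling, on all 24 libraries. SE values are those implied by the F statistics. Folds against 1.2 used glmTreat. Levels in CPM use TMM-scaled library sizes. Principal components used log2 CPM with a prior count of 2. Library measures were compared by permuting temperature within populations (46656 arrangements). DESeq2 1.42.0 and limma 3.58.1 were alternatives. The tests were first run on simulated counts, drawn independently for each contig and library, and no result given here rests on that run.

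Pairing by population comes from the labels. Libraries of a population at different temperatures correlated, after group means were removed, at -0.0024 to 0.145 on average, and the pool letters at -0.073 to 0.061, so the letters were not taken as pairs. Between pools a and b the chi-square statistic was 11.3 to 58.3 per degree of freedom, above sampling noise. Pools hold different larvae of the same population. The edgeR p-values of the average effect rest on 17 residual degrees of freedom. These combine the spread between such pools with differences in response among populations. Each pool therefore counted as a replicate of the average effect. With the pools of each population and temperature summed, edgeR called 1 contig.

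Contigs were named if called, at or above 1 in mean log2 CPM, of 1 sign in 6 populations and among the 2 smallest p in either direction. For the difference among populations no contig passed. The comparison, its rule for contigs and the alternatives were chosen with earlier results of these data known.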

Additional observations from a re-analysis of the deposited data

Results flagged for a closer look

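In northern larvae at 24 °C the contigs that rose took 5.84% of counts in pool a of population 2, and the nearest of the other 5 libraries held 6.99%. The gap was 0.844 of the range of the 6 libraries, above Dixon's limit. Of 40 groups of 6 libraries checked in this way 1 passed the limit, and chance alone passes it in about 1 of 20. Without this library 469 contigs were called.

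The 191 contigs left out for zeros took no part in the comparison. In southern population 2 they held at least 5384 counts in each library at 24 °C and at most 4209 at 20 °C. Northern population 1 separated the other way, with 8902 and 8584 counts at 20 °C and 6069 and 5226 at 24 °C. Over all libraries their median was 2416 counts at 24 °C and 2530 at 20 °C. When they were kept in the fit, edgeR called 0 of them for the average effect and 459 contigs in all.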

How the results depend on the processing

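The 4 named contigs kept their direction in each of 47 alternatives. TRINITY_DN121930_c0_g1_i6 passed in 45 of them and the others in 44, failing with a single pool (adjusted p up to 0.358) and, all but the first, with pools summed (0.138, 0.106 and 0.0781). The 466 calls came from the paired fit with population as a block. With no replicate block there were 310 for temperature alone and 493 with latitude, and 269 with a block of population and pool letter. It was 1340 with library totals, 1087 by DESeq2, which called all 466, and 1 with pools summed. Pool a alone gave 0 calls (2861 contigs at an unadjusted p under 0.05) and pool b alone 0 (2485), with 12 libraries each. Leaving out 1 library or population gave 71 to 616. The 18 contigs past 1.2-fold became 1 at 1.5-fold, 1 with pools summed, 0 in pool a, 0 in pool b, and 2 to 20 with 1 library or population left out. Differences among populations went from 0 to 81 by DESeq2 and ranged from 0 to 84 with 1 left out. The difference in contigs counted went from 79.7 to -801 for at least 10 counts. That in library totals ran from -68146 to 436766 with 1 population left out. The share keeping direction in a left-out population (mean 84.6%) was, with pools summed, 58.3% of 12 contigs in southern population 3 and 100% of 1 contig each in northern population 2 and southern population 1, with 0 calls for the others. The cause of these changes was not tested, except that fewer libraries entered where some were left out or summed. Precision was lowest in the least abundant group of contigs (median SE 0.29), and the part of depth in this was not tested.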
